A study of Homo sapiens with 4 samples.

Results

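RN7SK, RN7SL1, RN7SL2, RMRP and RPPH1, small structural RNAs that are not translated, were taken from the RNA-seq table by gene name. They are 5 of 18650 loci with fragments, a locus being a gene or a group of overlapping genes listed with the same values. They were chosen because they are abundant, so their levels are given as a description. The RNA came from HT-29, an established human colorectal adenocarcinoma line, and from NCM460, a colon epithelial line that the study used as normal colon. Both lines were kept without SCS, a chondroitin sulfate prepared from hybrid sturgeon, or with 100 μg/mL SCS for 24 h. The labels give no other treatment for any of the 4 groups. Each of the 4 conditions is represented by 1 library, named HT-29 control, HT-29 SCS, NCM460 control and NCM460 SCS, and values below follow this order unless stated. The comparisons therefore have no replicate check and carry no p-value. All intervals are 95% intervals and cover counting error only.

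Each of the 5 RNAs works as the core of a particle made of RNA and protein, and all of them are made by RNA polymerase III. RN7SK holds the kinase P-TEFb in an inactive state with the proteins HEXIM1, LARP7 and MEPCE, and release of the kinase lets RNA polymerase II leave its pause near promoters. RN7SL1 and RN7SL2 are near-identical genes for 7SL RNA, the scaffold of the signal recognition particle (SRP), which brings ribosomes with secreted or membrane proteins to the endoplasmic reticulum. RPPH1 is the catalytic RNA of RNase P, which trims the front end of precursor tRNAs. RMRP is its relative in RNase MRP, which acts on precursor ribosomal RNA and shares most protein subunits with RNase P.

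Coordinates are those of the deposited table and lie on GRCh38. RN7SK (ENSG00000202198) is on the plus strand of chromosome 6 at chr6:52995620-52995950, with 331 bases. RN7SL1 (ENSG00000276168), on the plus strand at chr14:49586580-49586878, has 299 bases, and RN7SL2 (ENSG00000274012), on the minus strand at chr14:49862550-49862849, has 300 bases. RMRP (ENSG00000277027) is on the minus strand at chr9:35657754-35658017, with 264 bases, and RPPH1 (ENSG00000277209) on the minus strand at chr14:20343075-20343407, with 333 bases. The table lists RN7SL1 with the same values as AL139099.2, so its fragments are shared with that overlapping gene.

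The 7SL genes are nearly alike. Over the 299 positions of their GENCODE release 29 transcripts compared, 295 were identical (98.7%), 4 differed, and RN7SL2 has 1 further base at its end. The longest stretch without a difference is 205 bases, so a fragment that falls within it cannot be assigned to one gene by its letters.

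The first 120 bases of RN7SK are shown because it had the largest difference with SCS of the 5 in NCM460 cells, with the TMM factors described below. In HT-29 cells, and in NCM460 cells under some other settings, its difference was not the largest. The transcript was read from GENCODE release 29 and is written 5′ to 3′ as DNA. Capitals mark GATC, the letters of the motif that HEXIM proteins are known to contact in 7SK RNA. The motif reads the same on both strands.
RN7SK: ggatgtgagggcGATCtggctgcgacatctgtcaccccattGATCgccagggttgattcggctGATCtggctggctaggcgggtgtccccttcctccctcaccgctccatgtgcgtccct
RN7SK holds 3 of these motifs, all within this stretch, and each 7SL RNA holds 4, while RMRP and RPPH1 hold 0. Of 5382 GENCODE transcripts between 264 and 333 bases long, 66.3% hold at least 1 and 11.0% hold at least 3. The GC content of RN7SK was 58.0%, the lowest of the 5, against 62.9% in RN7SL1, 62.7% in RN7SL2, 63.3% in RMRP and 64.6% in RPPH1.

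The libraries held between 1156568 and 1654764 fragments on named genes. The mitochondrial genome took 35.8%, 13.8%, 62.3% and 46.3% of them, which left between 507692 and 1383424 nuclear fragments. Shares below are of nuclear fragments. A floor of 3 fragments corresponds to between 2.17 and 5.91 nuclear CPM, fragments scaled to a common library size, far under the level of each of the 5 RNAs. Of 9 colon epithelium markers, 7 had more than 3 fragments in both HT-29 libraries and 6 in both NCM460 libraries, and the leukocyte marker PTPRC had 0 fragments in all 4 libraries. The epithelial markers summed to 12445, 5804, 6667 and 4627 nuclear CPM. They were not the same in both lines, as KRT20 and VIL1 were at 0 in both NCM460 libraries and CDX2 in both HT-29 libraries. Mesenchymal markers moved with the line, as the 5 of them summed to 6.59 and 9.40 nuclear CPM in HT-29 and 165 and 201 in NCM460 libraries, most of it SPARC with 0, 0, 65 and 102 fragments, and CDH2 was at 0 in all 4. The part of what these markers show in the differences below was not tested. According to the labels, libraries were made from total RNA with the NEBNext Ultra RNA kit. Whether mRNA was selected by its poly(A) tail, which these 5 RNAs lack, is not given in the sources used here.

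The 5 RNAs took 8.63% (8.57 to 8.68) of nuclear fragments in the HT-29 control and 10.4% (10.4 to 10.5) in HT-29 SCS. In NCM460 cells they took 17.0% (16.9 to 17.1) in the control and 13.4% (13.3 to 13.4) with SCS. The summed share was thus 1.78 percentage points higher with SCS in HT-29 cells and fell by 3.60 percentage points in NCM460 cells. Of all fragments, mitochondrial ones included, they took 5.53%, 8.97%, 6.39% and 7.18% in the order of the libraries, so the direction in NCM460 cells turned with the denominator. RN7SK ranked first among nuclear loci in both HT-29 libraries and in the NCM460 control and second in NCM460 SCS. The locus above it there was CTD-2328D6.1, with 5.86% of nuclear fragments. RN7SL1 had rank 3 in all 4 libraries, and RPPH1, the least abundant, still ranked between 6 and 12.

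**Figure D1:**
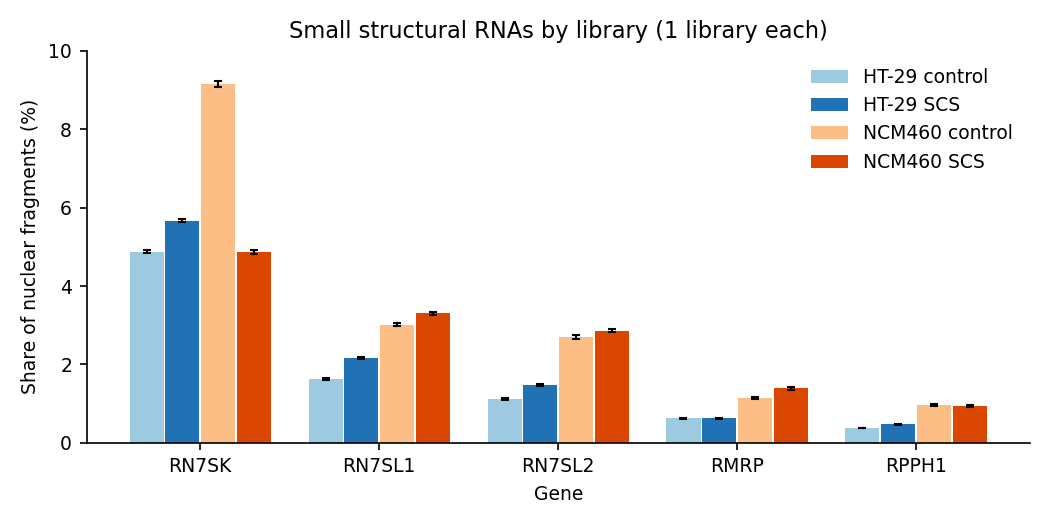
Share of nuclear fragments (%, vertical axis) taken by each of the 5 RNAs in each of the 4 libraries, 1 library per bar, with 95% Clopper-Pearson intervals that cover counting error only. RN7SK stands out in the NCM460 control at 9.15%, while the other 4 RNAs have higher shares in both NCM460 libraries than in both HT-29 libraries.

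RN7SK had 51796 fragments in HT-29 control cells and 78406 in HT-29 SCS. The NCM460 control had 46453 and NCM460 SCS 30218. These were 4.88%, 5.67%, 9.15% and 4.86% of nuclear fragments. The NCM460 control was the highest library and HT-29 SCS the next, while the HT-29 control (4.84 to 4.92) and NCM460 SCS (4.81 to 4.92) could not be told apart beyond their intervals. RN7SL1 had 17317, 29992, 15311 and 20509 fragments, or 1.63%, 2.17%, 3.02% and 3.30%, and RN7SL2 had 11843, 20418, 13672 and 17784 fragments, or 1.12%, 1.48%, 2.69% and 2.86%. Both 7SL genes thus had the same order, with NCM460 SCS highest and the HT-29 control lowest, and no neighbours in that order had overlapping intervals.

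RMRP had 6612, 8602, 5796 and 8616 fragments, a share of 0.623%, 0.622%, 1.14% and 1.39%. The intervals of both HT-29 libraries overlapped (0.608 to 0.638 and 0.609 to 0.635), and NCM460 SCS was the highest. RPPH1 had 4020, 6535, 4867 and 5905 fragments, a share of 0.379%, 0.472%, 0.959% and 0.950%. Here it was both NCM460 libraries whose intervals overlapped (0.932 to 0.986 and 0.926 to 0.974), and the HT-29 control was the lowest. Per kilobase of annotated length the order of the 5 genes stayed as by share in each library, with RN7SK between 146872 and 276430 nuclear CPM per kilobase and RPPH1 between 11371 and 28788.

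The deposited FPKM values, which are per kilobase by the authors' own calculation, put RPPH1 last of the 5 as well, but farther below RMRP. RPPH1 had 3966, 5018, 14701 and 10731 FPKM against 31140, 46017, 66352 and 72963 for RMRP. The scaled count divided by the FPKM gives a length only up to the library total behind the FPKM, which is not given in the sources used here. Without that total it lay between 676 and 752 bases for RPPH1 and between 255 and 348 bases for RN7SK. The annotated lengths are 333 and 331 bases. Between genes of the same library the total cancels, and in the HT-29 control RPPH1 stood at 696 and RN7SK at 282. For RMRP it was 146, 108, 178 and 157 bases. FPKM levels of these short RNAs are therefore not comparable between genes on their annotated length, and fragments are used below. From HT-29 control to HT-29 SCS the value fell for RN7SK (282 to 255) and RMRP (146 to 108). It rose for RN7SL1 (195 to 222), RN7SL2 (197 to 224) and RPPH1 (696 to 752). Changes between libraries by FPKM and by fragments thus differ by gene, and which of them is nearer to the RNA level was not tested.

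For changes between libraries, TMM factors from edgeR set the library sizes, and CPM values were compared on the log2 scale. A locus was called when it differed by more than 1.5-fold with an interval that excluded 0. In HT-29 cells 31.5% of 12168 loci tested were called (16.8% higher and 14.8% lower), and in NCM460 cells 29.2% of 12657 (15.4% higher and 13.8% lower), so a call on its own is common in these libraries. Of the 5 RNAs, 0 were called in HT-29 cells and 1, RN7SK, was called lower in NCM460 cells. As these libraries are of bulk RNA, fewer cells of a type and less RNA per cell cannot be told apart.

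In HT-29 cells all 5 RNAs had a higher CPM with SCS. The log2 fold change was 0.37 (0.35 to 0.38) for RN7SK, 0.56 (0.53 to 0.59) for RN7SL1, 0.55 (0.52 to 0.59) for RN7SL2, 0.15 (0.10 to 0.19) for RMRP and 0.47 (0.41 to 0.53) for RPPH1, beside a median of 0.07 over all loci. The signs of RN7SK and RMRP were not the same under every setting, with RN7SK at -0.12 and RMRP at -0.10 once a smooth trend on mean expression was subtracted and RMRP at -0.0023 when scaled by nuclear fragments only. RN7SL1, RN7SL2 and RPPH1 remained above 0 under every setting tried, between 0.20 and 0.84 for RN7SL1. Scaling by all fragments shifted the median of all loci by 0.25, and RN7SK, both 7SL genes and RPPH1 then passed the threshold. Under this scaling 4263 loci were called in either direction, against 3839 with TMM factors. The 5 RNAs lay at percentiles 54.1 to 74.4 of all loci in this comparison.

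In NCM460 cells RN7SK had a log2 fold change of -1.09 (-1.11 to -1.07), or 0.468 times its control level and at the percentile 11.7 of all loci. The other 4 RNAs were near the median of all loci of 0.03, at -0.05 (-0.08 to -0.02) for RN7SL1, -0.09 (-0.13 to -0.06) for RN7SL2, 0.10 (0.05 to 0.15) for RMRP and -0.19 (-0.25 to -0.14) for RPPH1. The sign of these 4 depended on the scaling, since RN7SL1 and RN7SL2 were at 0.13 and 0.09 by nuclear fragments only, RN7SL1, RN7SL2 and RPPH1 were at 0.64, 0.60 and 0.50 by all fragments, which shifts the median of all loci by 0.54, and RMRP was at -0.0040 with DESeq2's size factors. RN7SK was below 0 under every setting tried, between -1.24 and -0.40.

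Log2 fold changes in NCM460 cells moved with the GC content of transcripts, at a Spearman's rho of -0.63 over 12595 loci, which are not independent, against -0.12 over 12101 loci in HT-29 cells. With a smooth GC trend subtracted, RN7SK was at -0.48 (-0.51 to -0.46) and no longer called. RN7SL1, RN7SL2 and RMRP were then called higher, at 0.66 (0.63 to 0.69), 0.61 (0.58 to 0.64) and 0.81 (0.76 to 0.86), and RPPH1 was at 0.53 (0.48 to 0.59). Of all loci, 1489 were called in either direction with the trend subtracted, against 3690 without it. The gap between RN7SK and the other 4 RNAs was present with and without the trend, while where they stood against 0 was not the same. The part of GC content in these values was not tested.

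**Figure D2:**
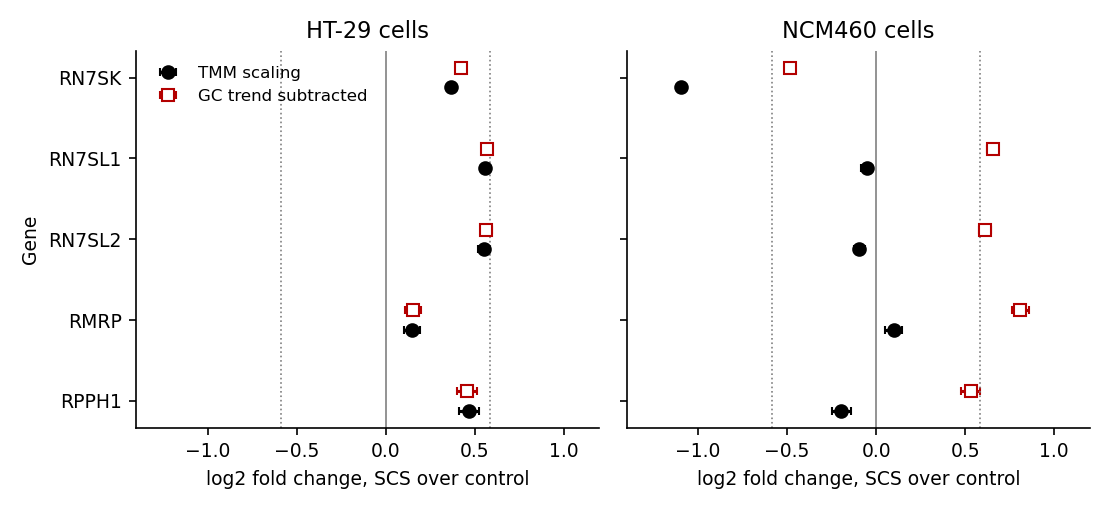
Log2 fold change of SCS over control (horizontal axis) for each RNA in HT-29 cells (left) and NCM460 cells (right), with TMM scaling (filled circles) and with the GC trend subtracted (open squares). Bars are 95% counting intervals, often smaller than the symbol, and dotted lines mark 1.5-fold. In NCM460 cells the subtraction moves all 5 RNAs to the right, and RN7SK stays the lowest.

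The log2 fold change with SCS in HT-29 cells minus that in NCM460 cells was 1.46 (1.43 to 1.49) for RN7SK, 0.61 (0.57 to 0.65) for RN7SL1, 0.65 (0.60 to 0.69) for RN7SL2 and 0.66 (0.58 to 0.74) for RPPH1. For RMRP it was 0.05 (-0.02 to 0.12) and its interval included 0. With the GC trend subtracted it was 0.91 (0.88 to 0.94) for RN7SK, -0.09 (-0.13 to -0.05) for RN7SL1, -0.05 (-0.09 to 0.00) for RN7SL2 and -0.07 (-0.15 to 0.01) for RPPH1, so of these 4 RNAs only RN7SK kept a positive difference. RMRP was then at -0.66 (-0.72 to -0.59), with the higher change in NCM460 cells. With 1 library per condition these differences were not tested.

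Ratios between 2 RNAs within a library do not depend on how libraries are scaled. For each fragment of 7SL RNA, RN7SL1 and RN7SL2 together, there were 1.78 (1.75 to 1.80), 1.56 (1.54 to 1.57), 1.60 (1.58 to 1.63) and 0.789 (0.777 to 0.801) of RN7SK. RN7SK thus outnumbered 7SL in 3 libraries and not in NCM460 SCS, where the ratio was 0.492 times that of its control. Against RMRP, RN7SK stood at 7.83, 9.11, 8.01 and 3.51. NCM460 SCS was again the library that stood apart, and RN7SK made up 56.6%, 54.5%, 54.0% and 36.4% of the fragments of the 5 RNAs. In HT-29 cells the ratio of RN7SK to 7SL was 0.876 times that of the control by fragments, a log2 change of -0.19, but by FPKM this log2 change was 0.14, so its direction was not stable. In NCM460 cells it was -1.02 by fragments and -0.75 by FPKM.

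RN7SL1 and RN7SL2 kept a ratio that differed between the lines more than between treatments. It was 1.46 (1.43 to 1.497) without and 1.47 (1.44 to 1.495) with SCS in HT-29 cells, and 1.12 (1.09 to 1.15) and 1.15 (1.13 to 1.18) in NCM460 cells. Intervals overlapped within each line and not between the lines. The FPKM values gave 1.48, 1.49, 1.10 and 1.15. A further 7SL-like row named Metazoa_SRP, which shares its values with no other gene, moved with the line as well, with 124, 153, 1873 and 2470 fragments. Of the fragments on the 3 rows it held 0.423% (0.352 to 0.505), 0.303% (0.257 to 0.354), 6.07% (5.81 to 6.34) and 6.06% (5.83 to 6.30). RN7SL1 held 59.1%, 59.3%, 49.6% and 50.3% of them, and RN7SL2 40.4%, 40.4%, 44.3% and 43.6%. How the authors' counting shared reads among near-identical copies is not given in the sources used here, and its part in this split was not tested.

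RMRP and RPPH1, the RNAs of the related particles, stood at a ratio of 1.64 (1.58 to 1.71) and 1.32 (1.27 to 1.36) in HT-29 cells without and with SCS and at 1.19 (1.15 to 1.24) and 1.46 (1.41 to 1.51) in NCM460 cells. The ratio was lower with SCS in HT-29 cells and higher with SCS in NCM460 cells. By FPKM it was higher with SCS in both lines, with a log2 change of 0.22 in HT-29 cells where fragments gave -0.32, and of 0.59 in NCM460 cells where fragments gave 0.29. The ratio of 7SL RNA to RPPH1 varied less with SCS, at 7.25 (7.02 to 7.50), 7.71 (7.52 to 7.92), 5.95 (5.78 to 6.14) and 6.48 (6.31 to 6.67).

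**Figure D3:**
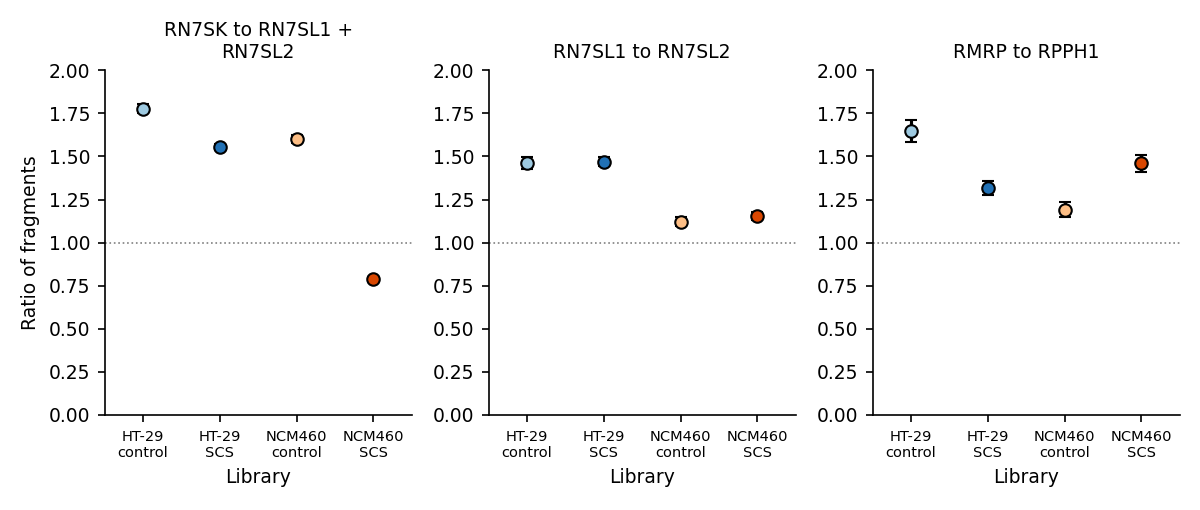
Ratio of fragments (vertical axis, from 0) between pairs of the RNAs within each of the 4 libraries, with 95% counting intervals. The ratio of RN7SK to both 7SL genes falls below 1 in NCM460 SCS, at 0.789, and the ratio of RN7SL1 to RN7SL2 separates the HT-29 libraries (1.46 and 1.47) from the NCM460 libraries (1.12 and 1.15).

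Without SCS, all 5 RNAs were called lower in HT-29 than in NCM460 cells, a comparison in which 48.4% of 12691 loci were called, 25.3% higher and 23.1% lower. The log2 fold change of HT-29 over NCM460 was -1.24 for RN7SK, -1.22 for RN7SL1, -1.60 for RN7SL2, -1.20 for RMRP and -1.67 for RPPH1. With SCS, RN7SL1, RN7SL2, RMRP and RPPH1 were called lower in HT-29 cells, at -0.60, -0.95, -1.15 and -1.01, beside 46.6% of 13050 loci called, 24.2% higher and 22.4% lower, and RN7SK was at 0.22 (0.20 to 0.24) and not called. These line differences depended on the scaling. By all fragments, which shifts the median of all loci by 0.94 without SCS, 0 of the 5 RNAs were called without SCS and RPPH1 was at -0.57. With the GC trend subtracted, RN7SL2 and RPPH1 stayed called lower without SCS, at -0.64 and -0.60. Of all loci without SCS, 7432 were called by all fragments and 4782 with the GC trend subtracted, against 6144 with TMM factors. With the trend on mean expression subtracted, RN7SK and RN7SL1 were at 0.56 and 0.26. Mitochondrial fragments, at 35.8% and 62.3% in these controls, moved with the line, and their part was not tested.

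Near-identical copies of 7SL and 7SK are spread over the genome as pseudogenes. Rows named as 7SL copies and sharing values with no other gene, 36 in number, held 164, 228, 1890 and 2532 fragments, or 0.562%, 0.452%, 6.52% and 6.61% of those of RN7SL1 and RN7SL2. Most of these were on the Metazoa_SRP row above. Other rows of 7SL copies with many fragments carried the values of larger genes, such as a Metazoa_SRP row listed with GOLGA2 (153, 371, 26 and 50 fragments) and RN7SL736P listed with NGRN (236, 243, 23 and 41). The 10 rows of 7SK copies with values of their own held 5, 11, 6 and 3 fragments. Among rows with values of their own, the fragments counted as 7SK were thus nearly all on RN7SK. From which copy they came is not shown, as the sharing of reads among copies is not given. RN7SKP176 (2, 12, 27 and 36), RN7SKP187 (13, 54, 2 and 8) and RN7SKP70 (6, 23, 0 and 9) were listed with PLCG2, ZNF277 and CLK4.

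Most of the other small RNAs listed had shorter rows than these 5 RNAs and 0 fragments. Among 14 other RNAs made by polymerase III, 13 had 0 fragments in every library, among them the Y RNAs RNY1, RNY3 and RNY4, the vault RNAs and the U6 genes, with rows 89 to 126 bases long. The only one above 0 was BCYRN1, a neuronal RNA related to Alu elements, with 44, 31, 73 and 82 fragments on a row that spans 13458 bases. Among 20 small RNAs made by polymerase II, 14 were at 0, with rows of 116 to 191 bases that hold the U1, U4 and U5 genes. Those above 0 on rows of their own were SNORD3A, SCARNA2, TERC and RNU12, with rows of 218 to 664 bases. Over the nuclear genome, 89 of 10303 rows shorter than 200 bases (0.864%) had fragments as rows of their own, against 412 of 3156 rows (13.1%) from 250 up to 350 bases, the range of the 5 RNAs. With rows that share the values of another gene included, 1910 of the 10303 and 461 of the 3156 had fragments. The contrast was thus seen only for rows of their own, and the part of length was not tested. A 0 on these rows says only that no fragment was counted there.

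SNORD3A, the U3 RNA that guides ribosomal RNA processing, had 1260, 116, 523 and 1780 fragments. Its log2 fold change with SCS was -3.64 (-3.96 to -3.40) in HT-29 cells and 1.29 (1.15 to 1.44) in NCM460 cells, called in both and in opposite directions. SCARNA2 had 144, 263, 196 and 204 fragments and was called higher in HT-29 cells at 0.63 (0.34 to 0.94). TERC, the RNA of telomerase, had 131, 203, 192 and 189 fragments and was not called in either line. RNU2-2P, listed with WDR74, had 206, 226, 304 and 200 fragments and was called lower in NCM460 cells at -1.07 (-1.34 to -0.82), but not with the GC trend subtracted. BCYRN1 was called lower in HT-29 cells at -0.68 (-1.45 to -0.04).

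The protein genes of each particle were read beside their RNA. Of all loci tested, 16.8% were called higher and 14.8% lower in HT-29 cells, with a median of 0.07. In NCM460 cells these shares were 15.4% and 13.8%, with a median of 0.03. Of the 7 genes of the 7SK particle and P-TEFb, 1 of 7 tested was called higher and 0 lower in HT-29 cells, with a median log2 fold change of -0.15. LARP7, which binds the 3′ end of 7SK RNA, went from 11 to 27 fragments at 0.91 (0.00 to 2.22), a call lost with the GC trend subtracted, at 0.66 (-0.25 to 1.97). With DESeq2's size factors or by nuclear fragments 0 of 7 were called higher. CDK9, the kinase, listed with MIR3960, went from 66 to 61 at -0.33 (-0.87 to 0.18). In NCM460 cells, where RN7SK was lower, 1 of 6 tested was called higher and 2 lower, with a median of 0.28. CCNT1, the cyclin of P-TEFb, went from 11 to 69 fragments at 2.08 (1.25 to 3.24), and MEPCE, the capping enzyme that stabilises 7SK, from 35 to 23 at -1.04 (-1.91 to -0.28). With the GC trend subtracted the median was -0.22, CCNT1 was still called at 1.07 and MEPCE was at -0.34 and not called.

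For the SRP and its receptor, 4 of 8 genes tested were called higher and 1 lower in HT-29 cells, with a median of 0.53, beside 0.56 for RN7SL1 and 0.55 for RN7SL2. Of the 8, SRP19 is listed with APC and shares its values, and with TMM factors it was not called in either line. SRP54, the subunit that reads signal peptides, went from 44 to 121 fragments at 1.18 (0.72 to 1.76), and SRP9, which binds the Alu domain of 7SL, from 181 to 140 at -0.59 (-0.93 to -0.28). In NCM460 cells 3 of 8 were called higher and 1 lower, with a median of 0.65 beside -0.05 for RN7SL1 and -0.09 for RN7SL2, or 0.10 beside 0.66 and 0.61 with the GC trend subtracted. SRP72 went from 6 to 49 fragments at 2.38 (1.33 to 4.07) and SRPRA, the receptor subunit listed as SRPR, from 54 to 41 at -0.85 (-1.49 to -0.26). SRP9 was at 0.96 (0.20 to 1.87) in NCM460 cells and SRPRA at 0.77 (0.58 to 0.98) in HT-29 cells, each on the other side of 0 from its value in the other line. After subtraction of the GC trend SRP9 was at -0.30 (-1.07 to 0.60) in NCM460 cells, no longer called and on the same side of 0 as in HT-29 cells (-0.85), while SRPRA was still called in both lines, at 0.80 and -0.59.

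For the proteins of RNase P and RNase MRP, 0 of 11 tested were called higher and 2 lower in HT-29 cells, with a median of -0.03. POP1, the largest subunit, went from 40 to 14 fragments at -1.55 (-2.74 to -0.84), and RPP21, listed with TRIM39, from 27 to 48 at 0.55 (-0.11 to 1.34). In NCM460 cells 1 of 11 was called higher and 1 lower, with a median of 0.10. POP4 went from 4 to 17 fragments at 1.41 (-0.00 to 3.64), and POP7 from 35 to 21 at -1.16 (-2.06 to -0.39), or -0.48 and no longer called after subtraction of the GC trend. The gene called higher, RPP30, had 0 and 8 fragments, which puts it at least 1.92-fold higher than a control set to a floor of 3 fragments. Its counting interval began at 1.23-fold, its call was lost with the GC trend subtracted, and it is named here after its values were seen.

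For RNA polymerase III itself, 2 of 13 subunits were called higher and 4 lower in HT-29 cells, with a median of -0.17. POLR3C went from 9 to 27 fragments at 1.14 (0.22 to 2.63) and POLR3K from 27 to 8 at -1.65 (-3.34 to -0.81). In NCM460 cells 1 of 13 was called higher and 0 lower, with a median of 0.27. That one was POLR3G, with 1 and 19 fragments and a ratio of 13.7 (2.18 to 569), a call lost with the GC trend subtracted. POLR3K had 6 and 4 fragments there.

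Among 20 factors that help or restrain polymerase III, 1 was called higher and 6 lower in HT-29 cells, with a median of -0.14. The one called higher was MAF1, the repressor of polymerase III, from 78 to 178 fragments at 0.94 (0.57 to 1.36). SSB, the La protein that binds the ends of new polymerase III transcripts, went from 76 to 44 at -0.97 (-1.59 to -0.47). In NCM460 cells 8 of 20 were called higher and 3 lower, with a median of 0.61. With the GC trend subtracted 4 were called higher and 2 lower. Of all loci, 1489 were then called in either direction, against 3690 without the subtraction. SNAPC1, among those called higher in NCM460 cells with and without the trend, is listed with HIF1A and shares its values. Its call cannot be assigned to SNAPC1 alone. SNAPC3, a subunit of the complex that binds the promoters of RN7SK, RMRP and RPPH1, had 2 and 27 fragments and a ratio of 9.72 (2.44 to 84.4), and GTF3C5 went from 60 to 31 at -1.39 (-2.10 to -0.78). MAF1 was at -1.02 (-1.46 to -0.61) and SSB at 1.82 (0.50 to 4.04), the reverse of HT-29 cells in both cases, but neither was called with the GC trend subtracted, at -0.32 (-0.76 to 0.09) and 0.73 (-0.58 to 2.96). GTF3A, named after its values were seen, went from 118 to 73 fragments in HT-29 cells and from 12 to 63 in NCM460 cells. Its log2 fold changes were -0.90 (-1.37 to -0.49) and 1.84 (1.01 to 2.95). Both were called, also with the GC trend subtracted, at -0.89 and 1.55.

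**Figure D4:**
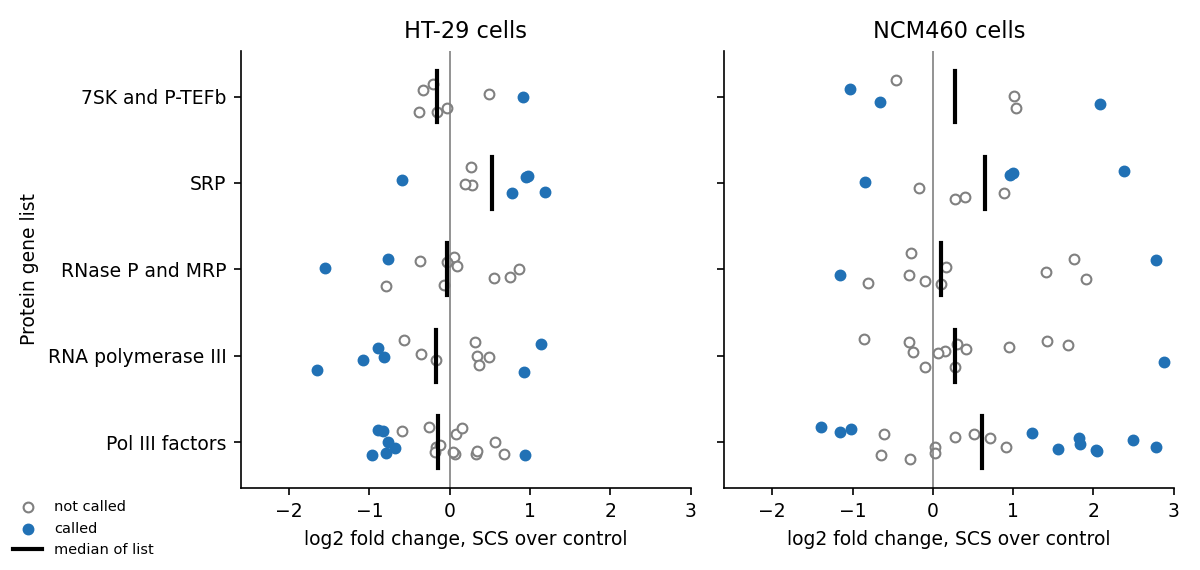
Log2 fold change of SCS over control (horizontal axis) of the protein genes in 5 lists, in HT-29 cells (left) and NCM460 cells (right). Each circle is a gene tested, filled where called, and the black bar is the median of the list, which for SRP was 0.53 in HT-29 cells and 0.65 in NCM460 cells. The vertical place within a list carries no value, and RPP30, with 0 fragments in the NCM460 control, is drawn at its fitted value.

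Over 1213 loci with at least 50 fragments in every library, the loci most like each RNA were taken by the distance between log2 CPM centred over the 4 libraries. Nearest to RN7SK were HSF1 at a distance of 0.063 and PLP2 at 0.12, both of them protein-coding genes. RN7SL2 and RPPH1 were each nearest to the other at 0.11, followed by SLC20A1 at 0.12 and LRRC75A-AS1, listed with snoRNA genes, at 0.17 for RN7SL2 and by AHNAK2 at 0.19 and SCARNA2 at 0.20 for RPPH1. Nearest to RN7SL1 were DDOST, listed with PINK1-AS, at 0.20 and GSR at 0.21. Nearest to RMRP were the ribosomal protein genes RPL3 at 0.042 and RPS20 at 0.10, both listed with overlapping snoRNA genes, followed by DYNC1H1 at 0.12. RN7SK was the RNA farthest from its fellows, at 0.85 from RN7SL1, 1.05 from both RN7SL2 and RPPH1 and 1.09 from RMRP. A distance over 4 libraries is a description and says nothing of shared control.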

How the data were processed

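RNA-seq was analysed from 4 libraries, 1 per condition. Per the labels' processing notes, the tools were bcl2fastq 2.17.1.14, cutadapt 1.9.1, Bowtie2 and HTSeq 0.6.1 on hg19, whereas the paper names Cuffdiff, and 93.4% of 20242 rows matched by identifier have the start and end of GENCODE release 29 on GRCh38. The authors deposited 1 table with FPKM values and count values that are not whole, a signal of fragment counts divided by a size factor per library. The design had assumed whole counts. Divided by the worth of 1 fragment (0.686, 0.577, 2.04 and 1.33), 99.8% to 99.9% of values above 0 came out whole within 0.05 fragments, and these fragments were used. Rows without a gene name, 26 in number, held 0.0403% to 0.0942% of fragments and were left out. Adjacent rows with identical values were merged.

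Libraries were scaled by TMM factors of edgeR 4.0.16 (1.24, 1.50, 0.578 and 0.935) in R 4.3.3. Log2 fold changes used CPM with a prior count of 2 where the mean was 1 CPM or more. Intervals are exact Clopper-Pearson intervals (SciPy 1.17.1). With 1 library per condition, no count test of edgeR or DESeq2 was run, and a model with line and SCS as additive terms, which leaves 1 residual degree of freedom, was not run either. GC content and length were taken from the longest GENCODE transcript for 98.9% of loci, and trends were lowess fits of span 0.3. The calls and intervals were tested on simulated data. These held counting error only, with known library sizes and without a GC trend or a spread between replicates, so they say nothing of either. Sequences are those of GENCODE release 29, in which the identifier of RN7SK carries the name RF00100.

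The 5 RNAs and the lists were chosen with earlier results of these data known. Named beside them were the 3 loci most like each RNA, the highest and lowest gene of each list with a mean of at least 5 CPM in each line, and the 3 rows with most fragments of the copies and of each list of small RNAs. RNY5 and SNAR-A3 were not analysed here. Some items that this rule or the choice of sequences would name are not reported here. Alternatives were other scalings, prior counts, filters and trends, thinning, FPKM values with a pseudocount of 0.1, and other denominators.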

Additional observations from a re-analysis of the deposited data

Results flagged for a closer look

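The following genes had a log2 fold change with SCS whose counting interval excluded 0 in both lines, with opposite signs in HT-29 and NCM460 cells. With 1 library per condition, the difference between the lines was not tested in any of them. Among the structural RNAs, RN7SK stood at 0.37 in HT-29 and -1.09 in NCM460 cells, RN7SL1 at 0.56 and -0.052, RN7SL2 at 0.55 and -0.094, and RPPH1 at 0.47 and -0.19. Among other small RNAs, SNORD3A stood at -3.64 and 1.29, SCARNA2 at 0.63 and -0.41, and TERC at 0.39 and -0.49. Among protein genes, MAF1 stood at 0.94 and -1.02, SRP9 at -0.59 and 0.96, SRPRA at 0.77 and -0.85, and SSB at -0.97 and 1.82. GTF3A, named after its values were seen, stood at -0.90 and 1.84. With the GC trend subtracted, the opposite signs remained with intervals that excluded 0 for RN7SK (0.43 and -0.48) and SNORD3A (-3.59 and 1.73). The same held for SRPRA (0.80 and -0.59) and GTF3A (-0.89 and 1.55). RN7SL1 (0.66), RN7SL2 (0.61), RPPH1 (0.53), SCARNA2 (0.32), TERC (0.24) and SRP9 (-0.30) then had the same sign in NCM460 as in HT-29 cells. The NCM460 intervals of MAF1 (-0.32, from -0.76 to 0.09) and SSB (0.73, from -0.58 to 2.96) included 0.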

How the results depend on the processing

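Values are log2 fold changes of RN7SK, RN7SL1, RN7SL2, RMRP and RPPH1 unless stated, and the cause of each move was not tested. In HT-29 cells, scaling by all fragments gave calls to RN7SK (0.64), RN7SL1 (0.84), RN7SL2 (0.83) and RPPH1 (0.74), and the length trend to RN7SL1 (0.62) and RN7SL2 (0.61). The signs turned for RMRP by nuclear fragments (-0.0023) and for RN7SK (-0.12) and RMRP (-0.096) with the expression trend. In NCM460 cells, by all fragments RN7SK lost its call (-0.40), RMRP gained one (0.79), and RN7SL1 (0.64), RN7SL2 (0.60) and RPPH1 (0.50) turned. RN7SL1 (0.13) and RN7SL2 (0.087) turned by nuclear fragments, and RMRP with DESeq2's size factors (-0.0040) and with the scaling as deposited (-0.049). With the GC trend RN7SK lost its call (-0.48), RMRP gained one (0.81), and RN7SL1 (0.66), RN7SL2 (0.61) and RPPH1 (0.53) turned. With the length trend RMRP gained a call (0.66), and RN7SL1 (0.47), RN7SL2 (0.43) and RPPH1 (0.30) turned. With the expression trend RN7SL1 (0.16), RN7SL2 (0.11) and RPPH1 (0.030) turned.

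For HT-29 over NCM460 without SCS, calls were lost by all fragments (RN7SK -0.14, RN7SL1 -0.12, RN7SL2 -0.50, RMRP -0.11, RPPH1 -0.57), with the GC trend (RN7SK -0.57, RN7SL1 -0.24, RMRP -0.21), with the length trend (RN7SK -0.43, RN7SL1 -0.38, RMRP -0.33) and with the expression trend (RN7SL2 -0.17, RMRP -0.00048, RPPH1 -0.54), under which RN7SK (0.56) and RN7SL1 (0.26) turned. With SCS, RN7SK gained a call by all fragments (0.90), with the length trend (0.61) and with the expression trend (1.31). Calls were lost by all fragments (RN7SL2 -0.27, RMRP -0.48, RPPH1 -0.33), with the GC trend (RN7SL1 -0.31), with the length trend (RN7SL1 -0.23, RN7SL2 -0.58), with the expression trend (RN7SL2 -0.043, RMRP -0.41, RPPH1 -0.33) and by FPKM (RN7SL1 -0.32), and RN7SL1 turned by all fragments (0.075) and with the expression trend (0.35).

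By FPKM, which carries no counting interval, 6425 loci passed 1.5-fold in HT-29 cells, 8430 in NCM460 cells, and 9352 and 9177 between the lines without and with SCS. With the GC trend, 1489 loci were called in NCM460 cells, against 3690 with TMM factors. By all fragments 4263 loci were called in HT-29 and 4193 in NCM460 cells, and with the length trend 3726 and 3529. Between the lines with SCS, 6988 were called by all fragments, 6016 with the length trend and 6030 with the expression trend. The 5 RNAs took 5.53%, 8.97%, 6.39% and 7.18% of all fragments and 9.96%, 12.7%, 22.7% and 17.3% of protein-coding fragments in the order of the libraries, so that by all fragments the summed share was higher with SCS in NCM460 cells too. With copies added the nuclear shares of NCM460 cells were 17.3% and 13.8%. By FPKM the log2 change of the ratio of RN7SK to 7SL was 0.14 in HT-29 and -0.75 in NCM460 cells, that of RMRP to RPPH1 0.22 and 0.59, and in HT-29 cells that of RN7SK to RMRP -0.068 and of 7SL to RMRP -0.21. The change in HT-29 minus that in NCM460 cells, recomputed under these settings after the data were seen, stayed above 0 for RN7SK (0.77 to 1.59). It turned with the GC trend for RN7SL1 (-0.086), RN7SL2 (-0.045) and RPPH1 (-0.072), and its interval included 0 with the expression trend for RN7SL1 (0.040). For RMRP it turned by all fragments (-0.37), by nuclear fragments (-0.28) and with the GC (-0.66), length (-0.46) and expression (-0.42) trends, its interval excluded 0 with DESeq2's size factors (0.13) and the scaling as deposited (0.18), and it was 0.43 by FPKM. The labels give no replicate numbers, and a fit of SCS against control with the line as a block, which has 2 pairs, was not run. Leaving out a library was not run, since it would leave a line without a comparison. One library per condition and counting error alone limit every value, and the depth of these RNAs, at least 4020 fragments in each library, is not the limit.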
